A study of Homo sapiens with 6 samples.

Results

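IL6R, IL6ST, IL7R, OSMR, LIFR, JAK1, JAK2, STAT3, STAT5B and SOCS3 are receptors, kinases, transcription factors and an inhibitor of cytokine signalling, and were examined in MDAMB468 cells in which IGFBP2 was overexpressed. The genes were chosen by name, with IL6R and IL7R already known to have passed a threshold in this comparison, so the values of the 10 genes are given as a description and no test is built on them. All 10 of the 10 listed genes were found by Ensembl identifier among the 10487 genes analysed. IL7R, IL6R, OSMR, SOCS3 and LIFR were higher in every IGFBP2 overexpression library than in every control library, as were 9.43% of all genes. Of these genes, OSMR, SOCS3 and LIFR did not pass an adjusted p under 0.05 in limma. IL6ST, JAK1, JAK2, STAT3 and STAT5B overlapped between the groups.

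Cytokines of the interleukin 6 family signal through a shared receptor chain, gp130, which IL6ST encodes. IL6R binds interleukin 6 and hands it to gp130, whereas LIFR and OSMR pair with gp130 to read leukaemia inhibitory factor and oncostatin M. The receptor chains have no kinase of their own and rely on Janus kinases such as JAK1 and JAK2, which phosphorylate STAT3 so that it enters the nucleus. Interleukin 7 instead binds IL7R together with the common gamma chain and signals mostly through JAK1, JAK3 and STAT5. SOCS3 is a target of STAT3 that binds gp130 and Janus kinases and dampens the signal.

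The MDAMB468 line was derived from a human breast carcinoma of the triple negative type, which lacks the hormone receptors and HER2 amplification. Total RNA was sequenced from the 3′ end of transcripts in 3 control libraries, whose cells are labelled wild type, and in 3 libraries labelled as overexpressing IGFBP2, and neither group was treated with a drug. In the overexpressing cells, lentivirus had delivered a dead Cas9 joined to transcriptional activators together with a guide RNA against IGFBP2, followed by antibiotic selection and sorting on a fluorescent marker. Whether the control cells carry the activator or went through the same steps is not given in the sources used here, so the activator and IGFBP2 itself cannot be told apart.

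The labels give biological replicates, numbered 1 to 3 in each group. Where 3 values are listed for a group, they stand in the order of these numbers. Levels are in CPM, the reads of a gene scaled to the normalized total of its library. IGFBP2 itself, the targeted gene, stood at 93.5, 87.3 and 136 CPM in the controls and at 566, 1176 and 498 CPM in the overexpression libraries. A two-sided exact permutation test gave p = 0.1, which no design of 3 against 3 can go under. The genes analysed held 2497353 to 4579587 reads per library, so that a single read was worth 0.222 to 0.404 CPM. Mitochondrial transcripts took 7.2 to 8.55% of reads and ribosomal protein transcripts 12.6 to 14.3%, with overlapping groups in both. ESR1 and PGR, the hormone receptor genes, were not among the genes analysed. ERBB2, the gene of HER2, was measured, with 15.8, 37.0 and 23.5 CPM in the controls. It had 16.8, 18.4 and 24.0 CPM in the overexpression libraries, with overlapping groups. All 9 of 9 breast carcinoma line markers were measured, among them EPCAM, which encodes an epithelial adhesion molecule and had 314 to 452 CPM. None of the 9 passed in limma at an adjusted p under 0.05, and 1 had an unadjusted p under 0.05. KRT7, a keratin of simple epithelia, was the only one without overlap, with a log2 difference of -0.46. Of 12 stromal and endothelial markers, 2 were measured, COL1A1 and VIM, and 0 passed in limma. VIM, the gene of vimentin, had an unadjusted p under 0.05, with 435, 274 and 92.6 CPM in the controls, 712, 646 and 371 CPM in the overexpression libraries and a log2 difference of 1.31 (SE 0.51). Its part in the receptor values was not tested.

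Differences are given as IGFBP2 overexpression minus control on the log2(CPM + 1) scale, with the standard error (SE) from limma, a linear model fitted to all 10487 genes. Genes kept by the authors had to average over 5 CPM in at least 1 group. On this scale the difference of a low gene is understated. In RNA from whole cultures, a change in the number of cells that express a gene and a change in its RNA per cell cannot be told apart.

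IL6R, on chromosome 1 from 154405193 to 154469450 of GRCh38, encodes the chain that binds interleukin 6. It stood at 1.33, 1.11 and 1.21 CPM in the controls. It stood at 8.97, 6.13 and 3.61 CPM in the overexpression libraries. The lowest overexpression library was thus above all controls, and the overexpression libraries differed more among themselves than the controls did. Control cells averaged 1.22 ± 0.11 CPM and overexpression cells 6.24 ± 2.68 CPM (± SD, 3 libraries each), a log2 difference of 1.64 (SE 0.27). These levels rest on 6, 4 and 3 reads in the controls and on 23, 19 and 11 reads in the overexpression libraries. Pooled over each group, the rate of reads was 4.95 times the control rate, with an exact 95% interval from 2.66 to 9.9 that covers counting error only. IL6R was the only one of the 10 genes whose control mean lay under the filter of 5 CPM, so it could enter the table only by being higher in overexpression cells.

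IL7R, on chromosome 5 from 35852695 to 35879603, encodes the alpha chain of the interleukin 7 receptor, best known from developing lymphocytes. It had 18.0, 6.12 and 11.7 CPM in the controls. It had 83.4, 67.8 and 43.7 CPM in the overexpression libraries. No overexpression library came near the highest control. The mean went from 11.9 ± 5.93 to 65.0 ± 20.0 CPM (± SD, 3 libraries each), a log2 difference of 2.41 (SE 0.37), which ranked 18 among the rises of all genes. With 132 control reads and 557 overexpression reads, the pooled ratio was 5.12 with an exact 95% interval from 4.23 to 6.24 for counting error only. IL7R and IL6R shared the order of the overexpression libraries, with replicate 1 highest and replicate 3 lowest.

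The sequences around the RefSeq starts of the receptor genes on GRCh38.p14 are given for those that did not overlap between the groups, from 250 bases before the start to 50 after it and in the direction of transcription. Capitals mark TTCNNNGAA, a 9-letter sequence that activated STAT dimers can bind and that reads alike on both strands. For LIFR, the first of its 3 listed starts is shown. The windows of IL7R and LIFR lie inside the gene intervals given here, 35852695 to 35879603 and 38474668 to 38608354. They do not cover the 5′ ends of those intervals. The windows are chr1:154405093-154405392 on the plus strand for IL6R, chr5:35856641-35856940 on the plus strand for IL7R, chr5:38845762-38846061 on the plus strand for OSMR and chr5:38595356-38595655 on the minus strand for LIFR.
IL6R: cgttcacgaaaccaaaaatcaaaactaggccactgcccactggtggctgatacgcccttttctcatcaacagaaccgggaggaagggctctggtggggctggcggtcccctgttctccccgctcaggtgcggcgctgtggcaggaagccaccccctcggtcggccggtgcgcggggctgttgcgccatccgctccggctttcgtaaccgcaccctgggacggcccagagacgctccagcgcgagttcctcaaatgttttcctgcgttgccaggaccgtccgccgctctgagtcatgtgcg
IL7R: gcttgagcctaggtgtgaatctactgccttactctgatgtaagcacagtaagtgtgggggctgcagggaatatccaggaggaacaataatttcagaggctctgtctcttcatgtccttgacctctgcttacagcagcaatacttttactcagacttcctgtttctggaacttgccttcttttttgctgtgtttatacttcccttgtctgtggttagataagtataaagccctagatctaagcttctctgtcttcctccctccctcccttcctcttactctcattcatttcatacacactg
OSMR: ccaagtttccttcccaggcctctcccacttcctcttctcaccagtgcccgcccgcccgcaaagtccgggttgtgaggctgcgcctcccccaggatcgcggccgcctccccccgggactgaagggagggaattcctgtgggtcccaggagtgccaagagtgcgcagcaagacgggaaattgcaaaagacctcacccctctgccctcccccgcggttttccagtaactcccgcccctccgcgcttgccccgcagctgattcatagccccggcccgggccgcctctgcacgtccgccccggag
LIFR: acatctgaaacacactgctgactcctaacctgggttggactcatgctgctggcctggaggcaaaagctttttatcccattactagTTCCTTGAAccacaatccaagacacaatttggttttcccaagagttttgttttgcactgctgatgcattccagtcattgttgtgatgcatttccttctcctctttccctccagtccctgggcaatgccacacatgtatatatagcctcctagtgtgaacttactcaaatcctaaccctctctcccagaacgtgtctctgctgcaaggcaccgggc
The LIFR window held TTCCTTGAA, beginning at position -165 from the start. The windows of IL6R, IL7R and OSMR held no match. Of 18 windows listed for the 10 genes, 2 held the sequence, both of LIFR. It was held by 7.66% of all 35116 windows and by 6.17% of the 12519 windows of measured genes. The share of G and C was 44.3% in the IL7R window, against 64.0% for IL6R and 67.7% for OSMR, and the median over windows of measured genes was 65.3%. A match describes the letters in a window, and binding was not measured.

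OSMR, on chromosome 5 from 38845858 to 38945596, encodes the specific chain of the oncostatin M receptor. It had 9.32, 12.2 and 5.26 CPM in the controls. It had 26.1, 17.1 and 20.7 CPM in the overexpression libraries. The groups did not overlap, and the log2 difference was 1.21 (SE 0.29), from 8.94 ± 3.51 to 21.3 ± 4.54 CPM (± SD, 3 libraries each). The pooled read ratio was 2.24 with an interval from 1.75 to 2.9 for counting error only. OSMR shares part of its interval with RICTOR on the opposite strand. RICTOR, a component of mTOR complex 2, had a log2 difference of 0.34 (SE 0.24), and whether the authors counted by strand is not given in the sources used here.

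LIFR, on chromosome 5 from 38474668 to 38608354, encodes the receptor chain for leukaemia inhibitory factor, which also forms one of the oncostatin M receptors. It had 5.55, 5.84 and 4.85 CPM in the controls. It had 6.24, 9.04 and 9.85 CPM in the overexpression libraries. The gap between the groups was narrow, with replicate 1 of the overexpression cells just above control replicate 2. The log2 difference was 0.53 (SE 0.21), on 58 control and 74 overexpression reads, and the counting interval of the pooled ratio of 1.55 ran from 1.08 to 2.22.

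IL6ST, on chromosome 5 from 55935095 to 55995022, encodes gp130, the chain that all these interleukin 6 family receptors share. It had 14.7, 25.0 and 11.3 CPM in the controls. It had 18.3, 25.5 and 16.8 CPM in the overexpression libraries. The groups overlapped, and replicate 2 was the highest library in each. The log2 difference was 0.29 (SE 0.29), with a 95% interval from -0.38 to 0.95. It was 0.59 without control replicate 2, 0.05 without control replicate 3 and 0.11 without overexpression replicate 2. The interval of the shared chain spanned 0, while those of the specific chains IL6R, OSMR and LIFR began at 1.02, 0.55 and 0.05. These intervals are unadjusted, and 13.0% of all genes had an unadjusted p under 0.05. The adjusted p from limma was 0.135 for OSMR and 0.331 for LIFR. IL6R was listed because it had passed here, so its interval cannot set the chains apart. The difference between the chains was not tested.

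**Figure D1:**
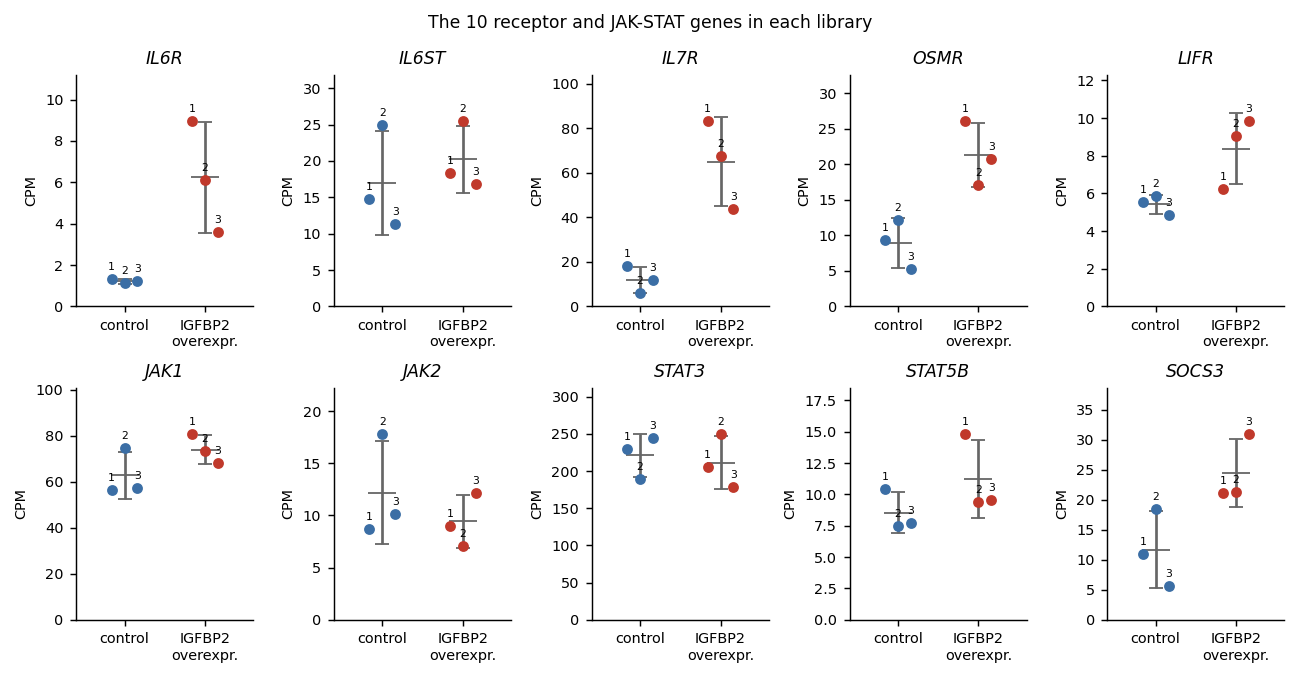
Each panel plots 1 gene, with CPM on a linear axis from 0, the 3 control libraries in blue and the 3 IGFBP2 overexpression libraries in red, numbered by replicate, and the grey bar and whiskers at the mean ± SD. IL6R, IL7R, OSMR, LIFR and SOCS3 lie above all controls in the overexpression libraries, as do 9.43% of all genes, and the other 5 genes overlap.

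A ratio of reads within a library does not depend on how libraries are scaled to each other, and is used here only to compare libraries. The controls held 9.09, 4.44 and 10.7 reads of IL6R per 100 reads of IL6ST. The overexpression libraries held 48.9, 24.1 and 21.6. The lowest overexpression value of IL6R against IL6ST was above the highest control value, where the controls held 6, 4 and 3 reads of IL6R. For OSMR against IL6ST the values were 63.6, 48.9 and 46.4 in controls, and 143, 67.1 and 124 in overexpression libraries, where replicate 2 was only just above control replicate 1. LIFR against IL6ST overlapped, with 37.9, 23.3 and 42.9 in controls and 34.0, 35.4 and 58.8 in overexpression libraries. IL7R per 100 reads of JAK1, the kinase that binds it, was 31.9, 8.21 and 20.4 in controls and 103, 92.5 and 64.3 in overexpression libraries, again without overlap. Since IL6R and IL7R were listed with their rise in these libraries known, the lack of overlap in their ratios is a description only.

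**Figure D2:**
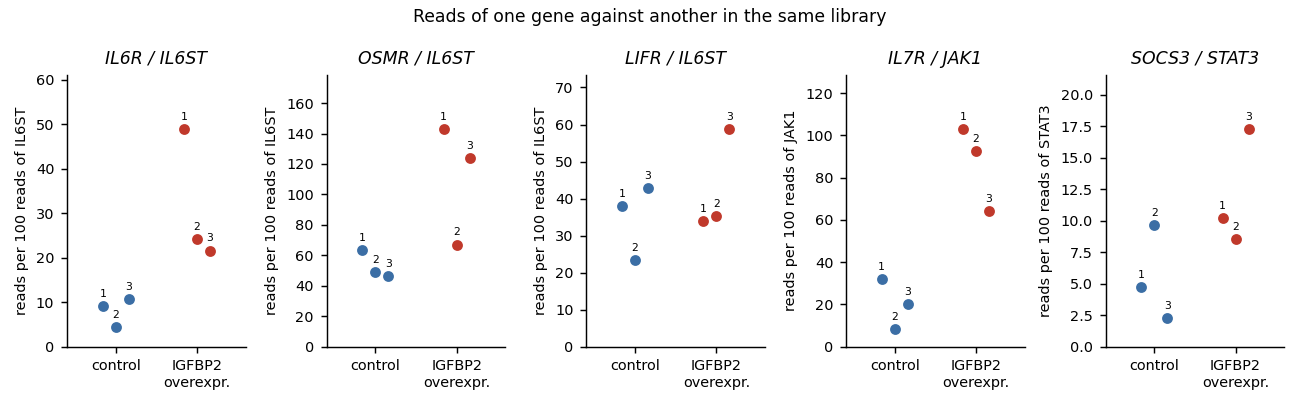
Each panel plots reads of 1 gene per 100 reads of another gene in the same library, on a linear axis from 0, for control (blue) and IGFBP2 overexpression (red) libraries numbered by replicate. IL6R and OSMR against IL6ST, and IL7R against JAK1, do not overlap between the groups, while LIFR against IL6ST and SOCS3 against STAT3 do.

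The kinases JAK1 and JAK2 overlapped between the groups. JAK1, on chromosome 1 from 64833223 to 65067754, serves both the gp130 and the interleukin 7 receptors. It had 56.4, 74.5 and 57.4 CPM in the controls, and 80.7, 73.3 and 68.0 CPM in the overexpression libraries. Its log2 difference was 0.24 (SE 0.19), with a 95% interval from -0.2 to 0.68. JAK2, on chromosome 9 from 4984390 to 5129948, had 8.66, 17.8 and 10.1 CPM in the controls and 8.97, 7.1 and 12.2 CPM in the overexpression libraries in the same order. Control replicate 2 was the highest library for JAK2, and the log2 difference of -0.31 (SE 0.29) went to -0.02 without it.

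Control replicate 2 was also the highest library for LCN2, which encodes an iron-binding acute phase protein, at 112 CPM against 18.2 to 26.1 CPM in the other 5 libraries. IL6ST, OSMR, LIFR, JAK1 and SOCS3 had their highest control value in this library as well. The part of that library in these results was not tested beyond leaving it out. Without it, the log2 difference was 1.45 for OSMR and 1.49 for SOCS3, both larger than with it. Without control replicate 3, the lowest control for both, the values were 0.91 for OSMR and 0.72 for SOCS3.

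STAT3 and STAT5B, the transcription factors at the end of the gp130 and interleukin 7 routes, lie near each other on chromosome 17, STAT3 from 42313324 to 42388540 and STAT5B from 42199176 to 42288633. STAT3 had 230.2, 189 and 245 CPM in the controls. It had 205, 249.5 and 179 CPM in the overexpression libraries. The groups overlapped widely, and with 2324 control and 1844 overexpression reads STAT3 had the deepest coverage of the 10 genes. Its log2 difference was -0.07 (SE 0.2), with a 95% interval from -0.54 to 0.39, and its sign turned when control replicate 3 or overexpression replicate 3 was left out. STAT5B had 10.4, 7.51 and 7.68 CPM in the controls and 14.8, 9.36 and 9.53 CPM in the overexpression libraries, with a log2 difference of 0.34 (SE 0.23). STAT5B overlaps STAT5A, its close paralog, near the starts of both genes, with the STAT5A start at -1.09 kb from that of STAT5B. The reads came from the 3′ end of transcripts, and an effect of the overlap on the counts was not tested. STAT5A had a log2 difference of 0.04 (SE 0.26).

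SOCS3, on chromosome 17 from 78356778 to 78360077, encodes the feedback inhibitor of gp130 signalling. It had 10.9, 18.4 and 5.66 CPM in the controls. It had 21.1, 21.3 and 30.9 CPM in the overexpression libraries. The groups did not overlap, but control replicate 2 lay close to the lower overexpression libraries. The log2 difference was 1.12 (SE 0.36), from 11.6 ± 6.38 to 24.4 ± 5.6 CPM (± SD, 3 libraries each). In contrast to IL6R and IL7R, SOCS3 was highest in overexpression replicate 3. Against STAT3 in the same library, SOCS3 overlapped between the groups, at 4.73, 9.69 and 2.31 reads per 100 reads of STAT3 in controls and 10.2, 8.54 and 17.3 in overexpression libraries.

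At an adjusted p under 0.05 from limma with Benjamini-Hochberg adjustment over all genes, 2 of the 10 genes passed, IL6R and IL7R, both higher, where 0.629% of all genes passed in either direction and 0.429% as higher. Since these 2 genes led to the list, nothing is read from that count. Overexpression libraries lay above all controls for 5 of the 10 genes, against 9.43% of all genes, and below all controls for 0, against 8.61%. The median log2 difference was 0.44 over the 10 genes and 9.8e-05 over all genes. IL6R and IL7R are among the 5 genes and in that median, so nothing is read from these values either. The call of IL6R was lost in 9 of its 14 alternative settings, among them the mean-variance trend, limma voom on reads, and 5 of the 6 fits that left out a single library. It remained without overexpression replicate 3. The call of IL7R was lost in 4 of its 15 settings, which were a pseudocount of 0.1 and the fits without control replicate 3, overexpression replicate 1 or overexpression replicate 2.

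**Figure D3:**
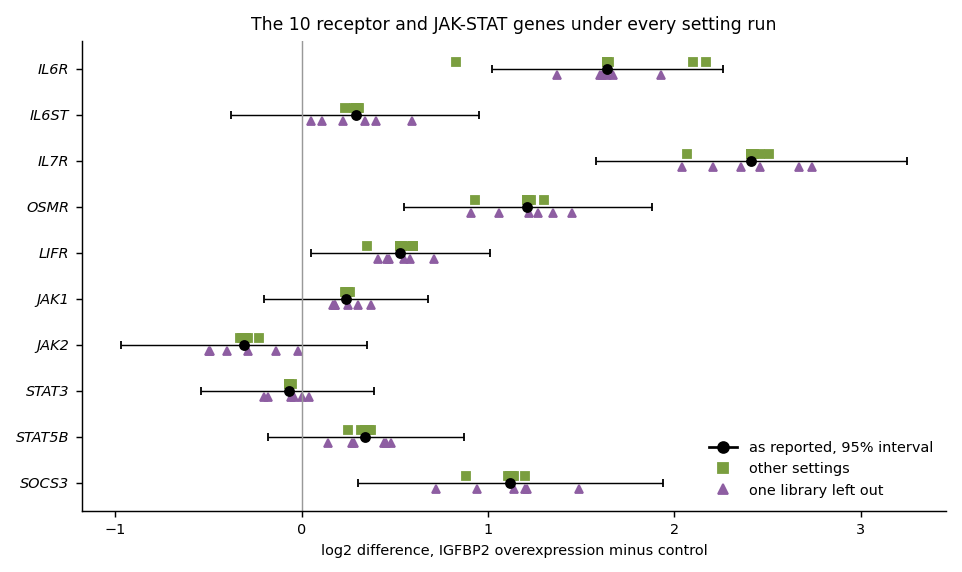
For each of the 10 genes, the black point and line give the log2 difference between IGFBP2 overexpression and control with its 95% interval, green squares the other settings of scaling, variance, pseudocount, filter and block, and violet triangles the fits without 1 library. With a library left out, IL7R stays between 2.04 and 2.74 and IL6R between 1.37 and 1.93. Between the other settings, IL6R ranges from 0.83 at a pseudocount of 5 to 2.17 at a pseudocount of 0.1. STAT3 sits on both sides of 0.

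The replicates of IL7R and SOCS3 were among the most variable of all genes, with a within-group SD of 0.6 and 0.59 on the log2 scale, at percentiles 94.2 and 93.4. JAK1, LIFR and STAT3 had SDs of 0.18, 0.23 and 0.22, at percentiles 21.3, 38.9 and 33.7. The kinase JAK1 and the factor STAT3 thus combined small differences with replicates that lay close together.

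The rest of the pathway was followed in 8 lists of 126 genes, of which 71 were among the genes analysed. With limma, 2 of the 71 had an adjusted p under 0.05, both higher, where 0.629% of all genes did, and 16 had an unadjusted p under 0.05, where 13.0% of all genes did. Overexpression libraries lay above all controls for 14 of the 71 and below all controls for 7, against 9.43% and 8.61% of all genes. The median log2 difference of the 71 was 0.1. The 2 genes were SAA1 and HSPB1, both listed as genes that respond to STAT3. The counts of genes above all controls include SAA1 and ZFP36, which entered the table only through the overexpression group. Those below include BCL6, which entered only through the control group.

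Of 11 interleukin 6 family ligands, 2 were among the genes analysed, IL11 and CLCF1, and neither passed. CLCF1, which encodes a cytokine that signals through LIFR and gp130, had 8.09 to 16.9 CPM in controls and 15.5 to 24.6 CPM in overexpression libraries, a log2 difference of 0.59 (SE 0.28). IL11 had 3.11 to 3.64 CPM and 3.12 to 6.9 CPM. IL6, LIF and OSM, the ligands of IL6R, LIFR and OSMR, were not among the genes analysed.

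Both measured receptors of the family outside the 10 genes, IL11RA and IL27RA, lay above all controls, as 9.43% of all genes did, and neither passed. IL11RA, the interleukin 11 receptor, had 5.77, 11.1 and 6.87 CPM in the controls and 13.6, 12.3 and 20.0 CPM in the overexpression libraries, a log2 difference of 0.89 (SE 0.27, adjusted p = 0.231 from limma). IL27RA, a chain of the interleukin 27 receptor, had 23.3, 15.3 and 12.5 CPM in controls and 33.1, 27.8 and 25.6 CPM in overexpression libraries, a log2 difference of 0.76 (SE 0.25, adjusted p = 0.247 from limma).

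Of 15 genes of the common gamma chain family, which holds the partners of IL7R, only IL4R was among the genes analysed, with a log2 difference of -0.02 (SE 0.24). IL2RG, the common gamma chain itself, IL7 and TSLP were not among the genes analysed. JAK3, the kinase that binds the common gamma chain, was not either. Of the 15 haematopoietic markers, 14 were likewise not among the genes analysed, PTPRC and CD3E included. The remaining marker, CSF1R, the receptor for macrophage colony-stimulating factor, had 0.444 to 1.67 CPM in controls and 4.27 to 9.36 CPM in overexpression libraries, on 2, 6 and 2 control reads. It passed the threshold with a log2 difference of 1.92 (SE 0.31, adjusted p = 0.0419 from limma), and, like IL6R, entered the table only through the overexpression group. It passed in 8 of its 14 alternative settings and in 2 of the 6 fits without a library.

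Of 19 receptors that use Janus kinases for other ligands, 9 were measured and 0 passed with limma, while 4 had an unadjusted p under 0.05, where 13.0% of all genes did. IFNGR1, a chain of the interferon gamma receptor, had 12.9 to 17.0 CPM in controls and 24.2 to 35.8 CPM in overexpression libraries, a log2 difference of 0.88 (SE 0.21, adjusted p = 0.132 from limma). IL20RA, a chain of the interleukin 20 receptor, lay the other way, with 8.88, 14.5 and 12.9 CPM in controls and 4.29, 5.81 and 6.24 CPM in overexpression libraries, a log2 difference of -1.01 (SE 0.23, adjusted p = 0.12 from limma). Of the other Janus kinases and STATs, 5 of 7 were measured and none passed. TYK2, which also binds gp130, had a log2 difference of -0.26 (SE 0.19), and STAT2 and STAT6 had differences of -0.04 and 0.35.

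Of 24 regulators of the pathway, 22 were measured, 0 passed with limma and 2, PIAS3 and SOCS6, had an unadjusted p under 0.05, where 13.0% of all genes did. The groups did not overlap for 5 of the 22, against 18.0% of all genes. PTPN2, CBL and NMI were the 3 below all controls, with log2 differences of -0.29, -0.32 and -0.29. SOCS2, an inhibitor induced by STAT5, had a log2 difference of 0.66 (SE 0.3, adjusted p = 0.396 from limma) without overlap of the groups. The gap was narrow, with 10.7, 8.62 and 4.45 CPM in the controls and 10.9, 16.1 and 10.8 CPM in the overexpression libraries. PIAS3, an inhibitor of STAT3, had a log2 difference of 0.44 (SE 0.17, adjusted p = 0.325 from limma), also without overlap. SOCS6, another inhibitor of the SOCS family, had 0.65 (SE 0.26) with overlapping groups. CISH, another STAT5-induced inhibitor, had -0.25 (SE 0.27). ADAM10 and ADAM17, the proteases that can release IL6R from the cell surface, had log2 differences of 0.13 and 0.11.

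Of 38 genes that respond to STAT3, 25 were measured and 2 passed, both higher, where 0.629% of all genes passed and 0.429% as higher. An unadjusted p under 0.05 was found for 7 of the 25, against 13.0% of all genes, and 6 lay above all controls and 1 below, against 9.43% and 8.61%. SAA1 and ZFP36 are in the 7 and in the 6. With control means of 2.01 and 2.59 CPM, they entered the table only through the overexpression group, so nothing is read from these counts. SAA1, an acute phase protein, had 2.44, 2.78 and 0.809 CPM in the controls and 19.1, 17.4 and 40.4 CPM in the overexpression libraries, a log2 difference of 3.12 (SE 0.37, adjusted p = 0.0148 from limma). Like SOCS3 it was highest in overexpression replicate 3, and its reads may be split with close paralogs. HSPB1, a small heat shock protein, went from 351 ± 75.1 to 846 ± 54.6 CPM (± SD, 3 libraries each), a log2 difference of 1.29 (SE 0.21, adjusted p = 0.0424 from limma). SAA1 averaged 2.01 CPM in controls, so it entered the table only through the overexpression group and had to differ. It passed in all 15 alternative settings. HSPB1 passed in 7 of 15 and in 0 of the 6 fits without a library. Both genes are also known to respond to other pathways, SAA1 to NF-kB and HSPB1 to heat shock factor.

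The other 23 measured genes of the STAT3 list did not pass. ICAM1, an adhesion receptor, had 5.99, 33.9 and 12.5 CPM in controls and 45.2, 46.5 and 47.6 CPM in overexpression libraries, a log2 difference of 1.67 (SE 0.48, adjusted p = 0.2 from limma). ZFP36, which encodes an RNA-binding protein that destabilises cytokine transcripts, had a log2 difference of 1.21 (SE 0.26, adjusted p = 0.0933 from limma) without overlap, and also entered the table only through the overexpression group. CCND1, the gene of cyclin D1, had 94.2 to 150.3 CPM in controls and 219 to 272 CPM in overexpression libraries, a log2 difference of 1.02 (SE 0.22, adjusted p = 0.106 from limma), and passed in 3 of 15 alternative settings. JUNB, a transcription factor of the AP-1 family, had a log2 difference of -0.57 (SE 0.2, adjusted p = 0.289 from limma). BCL3, MCL1 and PIM1 had differences of 0.48, -0.34 and -0.12. Of 12 genes that respond to STAT5, 7 were measured and 0 passed with limma, with 1 at an unadjusted p under 0.05, where 13.0% of all genes were. That gene, BCL6, a transcriptional repressor, had a log2 difference of -1.0 (SE 0.31, adjusted p = 0.231 from limma), and entered the table only through the control group.

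**Figure D4:**
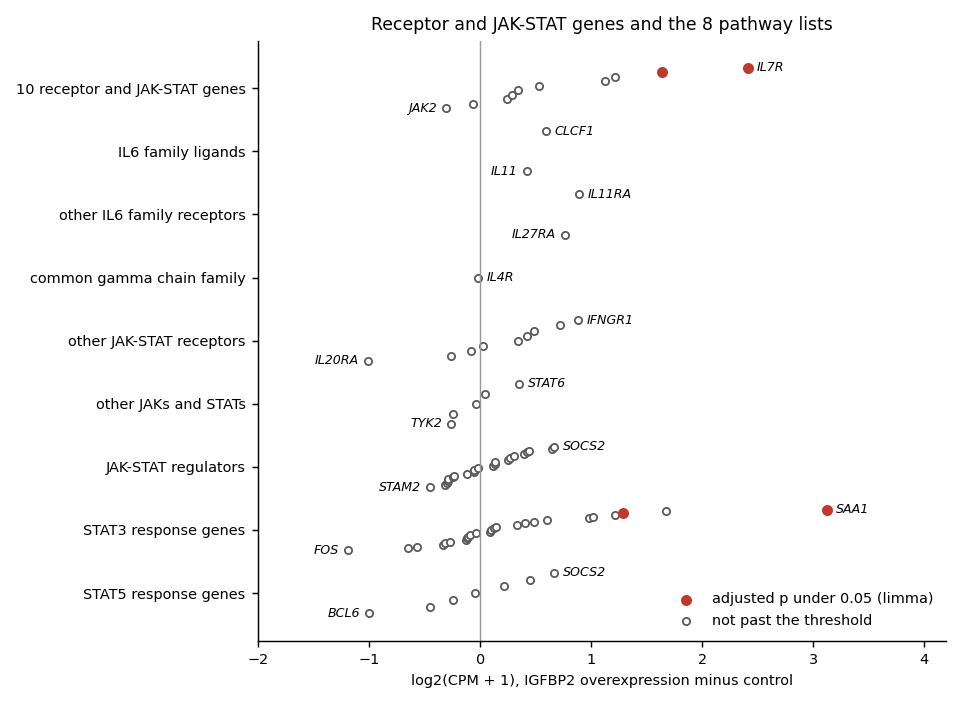
Points give the log2 difference between IGFBP2 overexpression and control for the 10 genes and for the measured genes of each of the 8 lists, ordered by size within a row, and red points passed an adjusted p under 0.05. IL6R and IL7R among the 10 genes, and HSPB1 and SAA1 among STAT3 response genes, are red, and the ligand, kinase and regulator rows hold none.

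The receptors IL7R, LIFR, OSMR and IL6ST all lie on chromosome 5, the first 3 on its short arm. EGFLAM, which encodes an extracellular matrix protein, ends 9.19 kb from LIFR and passed the threshold, with 1.11, 1.95 and 0.404 CPM in the controls and 8.19, 14.5 and 7.56 CPM in the overexpression libraries. Its log2 difference was 2.38 (SE 0.32, adjusted p = 0.0229 from limma), above that of LIFR and of OSMR, which lies a further 238 kb along. EGFLAM also entered the table only through the overexpression group, on 5, 7 and 1 control reads, and passed in 3 of the 6 fits without a library. RICTOR and DAB2, the other measured neighbours within 500 kb of OSMR, had differences of 0.34 and 0.28. The 3 measured neighbours of IL7R, LMBRD2, SKP2 and NADK2, had differences of 0.43, 0.5 and 0.61, far under that of IL7R itself. The 19 measured neighbours of IL6R ranged from -0.26 to 0.44 and 0 passed.

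**Figure D5:**
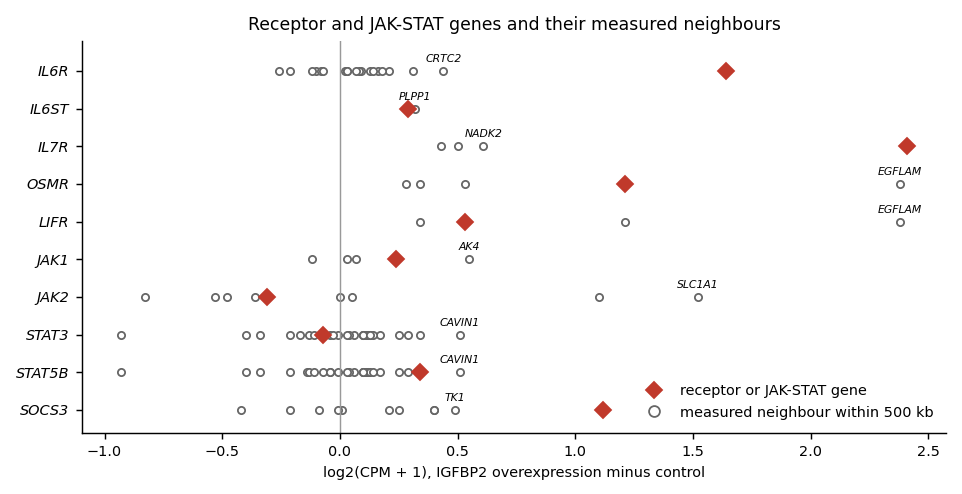
For each of the 10 genes, the red diamond is its own log2 difference between IGFBP2 overexpression and control and the open circles those of measured genes within 500 kb. IL6R, IL7R and SOCS3 lie to the right of all their neighbours, OSMR and LIFR share EGFLAM at 2.38, and STAT3 and STAT5B lie inside the range of theirs.

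The genes whose values over the 6 libraries, each less its own mean, lay nearest to those of IL6R were RGS20, ROR1 and JAG1. Their root mean square differences from IL6R were 0.197, 0.202 and 0.221 on the log2 scale. ROR1, an orphan receptor tyrosine kinase, went from 5.07 ± 1.25 to 17.8 ± 5.09 CPM (± SD, 3 libraries each), and JAG1, a Notch ligand, from 6.2 ± 0.815 to 19.8 ± 4.47 CPM (± SD, 3 libraries each). Nearest to IL7R were F3, which encodes tissue factor, LAMB3, a laminin chain, and PRKAR2B, a regulatory subunit of protein kinase A, at 0.342, 0.402 and 0.432. F3 went from 6.55 ± 0.745 to 45.4 ± 16.7 CPM (± SD, 3 libraries each). RGS20 averaged 1.84 CPM in controls and 7.09 CPM in overexpression cells, and PRKAR2B 2.08 and 8.56 CPM. Both thus entered the table only through the overexpression group. The distances are a description over 6 libraries that share 2 groups.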

How the data were processed

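Libraries were made from total RNA of MDAMB468 cells, 3 control and 3 IGFBP2 overexpression, grouped by the sample titles. Per the study methods, the authors removed adapters, mapped with STAR on hg38, obtained gene counts from htseq-count (version 0.9.1 per the labels) and normalized these in edgeR. They also used edgeR to find differentially expressed genes, and those calls are not compared with the ones given here, which come from another fit. They deposited log2(CPM + 1) for genes that averaged above 5 CPM in 1 group or both. The planned fits with edgeR and DESeq2 were not run, and limma voom on recovered reads was the only fit of reads. limma (version 3.58.1, R 4.3.3) was fitted to the deposited log2 values of 10487 genes with group as the only term, without a trend, and p-values were adjusted by Benjamini-Hochberg. Dividing each CPM by the worth of a single read gave back read numbers (100% within 0.01 of a whole number). Intervals of read ratios are exact binomial at 95% (scipy 1.17.1) and cover counting error only.

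GENCODE 44 on GRCh38 gave symbols for 10462 of 10487 identifiers and gene coordinates, and promoter windows came from RefSeq on GRCh38.p14, which listed all 10 genes. The genes and lists were chosen with earlier results of these data known. Named are the 10 genes, IGFBP2, list genes past the threshold or with the 2 largest differences without overlap, chromosomal neighbours, and the 3 genes nearest in profile to IL6R and to IL7R. LCN2, ZFP36, CCND1, VIM, SOCS6, PTPN2, CBL, NMI, BCL3, MCL1, PIM1 and some genes that set a list in context were named after their values were seen. The fitting was tested on simulated data with 200 changed genes, where limma as reported recovered 67% with 3 false calls. A gene that did not pass may thus still differ. Alternatives changed the variance model, scaling, pseudocount, filter, replicate block and the libraries included.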

Additional observations from a re-analysis of the deposited data

How the results depend on the processing

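The threshold was passed by 66 genes (45 higher, 21 lower) as reported, and by 160 with a mean-variance trend (94, 66), 141 with limma voom (90, 51), 37 at a pseudocount of 0.1 (28, 9), 129 at a pseudocount of 5 (84, 45) and 12 to 79 with 1 library left out. Leaving out overexpression replicate 1 gave 12, overexpression replicate 2 gave 13 and control replicate 3 gave 17. Of the 10 genes, 2 passed as reported. Only 1 passed with the trend, limma voom, a pseudocount of 5, an average CPM over 10 or the replicate block (IL7R in each), 1 at a pseudocount of 0.1 (IL6R), and 0 to 2 with 1 library left out, where the 0 were without control replicate 3 or IGFBP2 overexpression replicates 1 or 2. Of the 71 list genes, 2 passed as reported, 4 with limma voom, 1 at a pseudocount of 0.1, 1 with the replicate block and 1 to 2 with 1 library left out. The cause was not tested. STAT3 ranged from -0.2 to 0.04 with 1 library left out and changed sign, to 0.0029 without control replicate 3 and 0.04 without IGFBP2 overexpression replicate 3. IL6R had an adjusted p of 0.0509 (limma) with the replicate block. IGFBP2 kept its direction and passed in all 15 alternatives. The median log2 difference of all genes moved by at most 0.0231 under another scaling. Replicate numbers did not pair the libraries (correlation of deviations 0.172, -0.064 and 0.0842 for numbers 1, 2 and 3). The average CPM filter of 10 left out IL6R and LIFR. Fits of reads with DESeq2 and edgeR were not run. Genes of a few reads, such as IL6R in controls, are limited by depth.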
